A study of Mus musculus with 8 samples.

Results

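The 39 genes described here encode proteins that detect DNA damage, pass the signal on and repair the lesion, and they were chosen by name from the 27998 genes of the count table. By role they are 11 genes of damage signalling (Atm, Atr, Chek1, Chek2, Trp53, Mdm2, Trp53bp1, Mdc1, Rnf8, Rnf168 and H2afx), 10 of break sensing and homologous repair (Mre11a, Rad50, Nbn, Brca1, Brca2, Palb2, Rad51ap1, Rad54l, Blm and Wrn), 4 of end joining (Xrcc5, Xrcc6, Prkdc and Lig4), 6 of base excision and single-strand break repair (Ung, Ogg1, Apex1, Parp1, Parp2 and Xrcc1), 2 of mismatch repair (Msh6 and Pms2), 3 of the Fanconi anemia pathway (Fanca, Fancd2 and Fanci) and 3 of nucleotide excision repair (Xpa, Xpc and Ercc1).

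Broken or stalled DNA is sensed by the kinases Atm and Atr, which act through Chek2 and Chek1 to hold the cell cycle and through p53 (Trp53) to arrest or remove the cell. Homologous repair copies an intact sister chromatid and is therefore used after DNA replication, whereas end joining needs no template and serves resting cells as well. Hematopoietic stem cells divide rarely, and inherited loss of Fanconi pathway genes leads to bone marrow failure.

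KL cells (c-Kit+Lin-, the progenitor fraction of bone marrow) were sorted from female B6 mice of 3 to 4 months and read by 3′ single cell RNA-seq. SPF mice stayed in the specific-pathogen-free facility, and CVT mice came from that facility and had spent 1 month in a conventional one, caged with mice born there. By the sample labels each housing group comprised 10 mice in 4 pools of 2 or 3, so that a pool and not a mouse was the replicate (SPF pools 1, 2, 7 and 8, and CVT pools 3, 4, 5 and 6). The paper instead gives 8 mice for each group, also in 4 pools. Pool membership was read from the number that ends each cell name, matched to the number in the sample descriptions. The table held 335844251 unique molecular identifiers (UMIs, each 1 captured transcript) in 29891 cells, between 19041749 and 59812346 per pool.

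Progenitor states were set by transcripts outside the 39 genes. The stem gate took the 767 cells with Procr and with Hlf or Mecom, between 46 and 212 per pool. Among the other cells, the G2M gate took 7396 cells at or above the 75th percentile of a list of 40 genes of mitosis, and the S gate 4875 further cells at or above that of 41 genes of DNA replication. These 12271 cells together are called dividing, and 9188 cells below the median of both lists are called low-cycling. Summed over 8 further stem cell genes, the stem gate held 1253 to 1678 CPM (UMIs of the genes per 1000000 UMIs of the gate) in the 8 pools, the low-cycling cells 684 to 1452 CPM and the dividing cells 211 to 387 CPM. The gates are ranges and not cell types, since 3551 cells lay within 10% of the S limit and 1239 within 10% of the G2M limit. The median cell held 6291 UMIs in the stem gate, 13995 among dividing cells and 5740 among low-cycling cells. Genes of late granulocytes, 8 in all, summed to 14541 to 89365 CPM in low-cycling cells, 5110 to 34196 CPM in dividing cells and 880.0 to 6909 CPM in the stem gate, and 143 cells of the stem gate (18.6%) lay at or above a limit for division. Of 29365 distinct cell barcodes, 522 occurred in more than 1 pool. Levels below are CPM of the summed UMIs of a gate in a pool, given as the lowest, median and highest of the 8 pools. Fold changes are log2 values ± SE from edgeR's quasi-likelihood test on these sums, with pool as a block between gates and Benjamini-Hochberg adjustment over all genes tested.

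To show what lies upstream of genes that moved together, 250 bases before the start site are printed for 4 members that rose in dividing cells and hold the letters marked, and for Trp53bp1, the member that fell most there. Fanci and Chek1, which rose more than Brca2, have windows that hold neither CCAAT nor an E2F spelling searched here and are not printed. Mdm2 and Xpa, which fell in dividing cells, have windows that hold CCAAT and are not printed either. They are RefSeq sequences of GRCm38.p6, read 5′ to 3′ on the strand of the gene, at chr6:126939588-126939837 (minus), chr11:101551956-101552205 (minus), chr8:123318577-123318826 (minus), chr5:150522371-150522620 (plus) and chr2:121271408-121271657 (minus). Capitals mark the letters CCAAT, or ATTGG on the other strand, the box bound by NF-Y, and in Brca2 GCGGGAAA, the other strand of TTTCCCGC, a spelling of the E2F site.
Rad51ap1: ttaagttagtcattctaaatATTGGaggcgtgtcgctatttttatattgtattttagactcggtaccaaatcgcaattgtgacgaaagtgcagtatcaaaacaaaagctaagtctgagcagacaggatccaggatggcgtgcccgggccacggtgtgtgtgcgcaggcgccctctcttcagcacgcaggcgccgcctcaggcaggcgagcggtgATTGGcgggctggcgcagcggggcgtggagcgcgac
Brca1: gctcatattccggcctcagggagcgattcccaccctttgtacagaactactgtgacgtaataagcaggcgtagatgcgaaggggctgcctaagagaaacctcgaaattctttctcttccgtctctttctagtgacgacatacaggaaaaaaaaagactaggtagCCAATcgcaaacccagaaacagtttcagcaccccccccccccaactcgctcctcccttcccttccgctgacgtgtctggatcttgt
Fanca: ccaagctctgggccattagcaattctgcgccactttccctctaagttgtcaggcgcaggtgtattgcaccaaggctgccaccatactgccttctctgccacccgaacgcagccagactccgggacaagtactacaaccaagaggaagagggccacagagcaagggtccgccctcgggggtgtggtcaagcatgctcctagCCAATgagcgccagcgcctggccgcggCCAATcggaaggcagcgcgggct
Brca2: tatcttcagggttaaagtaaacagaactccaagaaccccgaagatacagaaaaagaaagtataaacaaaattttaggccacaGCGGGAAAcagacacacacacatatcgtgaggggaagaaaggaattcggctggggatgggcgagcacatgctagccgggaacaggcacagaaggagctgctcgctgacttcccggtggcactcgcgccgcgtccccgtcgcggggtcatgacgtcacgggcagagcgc
Trp53bp1: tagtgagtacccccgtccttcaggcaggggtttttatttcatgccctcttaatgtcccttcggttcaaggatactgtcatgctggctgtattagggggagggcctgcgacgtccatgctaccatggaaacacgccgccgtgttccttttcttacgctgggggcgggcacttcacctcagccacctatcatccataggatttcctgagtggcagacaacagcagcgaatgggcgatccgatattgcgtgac

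A window was found for 32 of the 39 members (all but Fancd2, H2afx, Nbn, Prkdc, Rad50, Wrn and Xpc). On both strands, CCAAT occurred in 19 of the 32 and in 33.8% of all 32851 windows of this length. The E2F spellings TTTCCCGC, TTTCGCGC, TTTGCCGC and TTTGGCGC occurred in 4 (Brca2, Chek2, Mdc1 and Xrcc6) and in 1.86% of all windows. The letters TTTGAA or TTCGAA, found at promoters of mitotic genes, occurred in 3 (Apex1, Atr and Rnf8) and in 17.1% of all. A match is a description of the sequence only.

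Dividing progenitors carried more transcript of most members than low-cycling progenitors. All 39 passed the filter on low counts, 31 rose and 4 fell, where 39.3% of all 11331 genes tested were called higher and 40.8% lower. The median log2 fold change was 0.69 over the members and -0.02 over all genes. Scaled by total UMIs alone, which moved the median of all genes by -0.12, 26 members were higher and 6 lower, where 3657 of all genes were higher and 5584 lower. In 19 members every pool of dividing cells lay above every pool of low-cycling cells, which held for 17.2% of all genes, and in 4 members every pool lay below, against 23.2% of all genes.

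The break-sensing and homologous repair genes were called higher, 10 of 10, over all gated cells. Rad51ap1, whose product aids strand invasion by the recombinase, stood at 0.533, 2.83 and 4.13 CPM in low-cycling cells and at 51.0, 59.1 and 63.5 CPM in dividing cells. The pools of the 2 states were far apart, with a log2 fold change of 4.47 ± 0.10 (adjusted p = 7.3e-16). Brca1, a scaffold of homologous repair, went from 1.02, 1.28 and 1.60 CPM to 13.2, 14.8 and 18.1 CPM (3.68 ± 0.09, adjusted p = 2.5e-15). Brca2, which loads the recombinase on DNA, went from 9.32, 10.7 and 12.5 CPM to 34.6, 38.2 and 45.4 CPM (1.94 ± 0.06 on the log2 scale). Rad54l (2.53 ± 0.09) and Palb2, the partner that joins Brca1 and Brca2 (1.34 ± 0.10), also rose with no overlap between pools. The break-sensing complex of Mre11a, Rad50 and Nbn rose by less, with log2 fold changes of 0.83 ± 0.05, 0.74 ± 0.03 and 0.81 ± 0.07. The helicase Wrn had the smallest value of the group, 0.12 ± 0.04, was higher in 3 of 8 pools by CPM, and changed sign when sums were scaled by total UMIs alone. Inside the granulocyte-monocyte gate Wrn fell (-0.35 ± 0.07, adjusted p = 1.7e-04), and inside the erythroid gate its value of -0.04 ± 0.06 did not pass the test.

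All 3 Fanconi genes rose. Fancd2 had 0.356, 0.723 and 1.06 CPM in low-cycling cells and 8.84, 9.16 and 10.8 CPM in dividing cells, which is 3.79 ± 0.13 on the log2 scale (adjusted p = 1.2e-13). Fanca, part of the complex that attaches ubiquitin to Fancd2 and Fanci, had a log2 fold change of 3.09 ± 0.13 and Fanci 2.79 ± 0.16. These are genes of few counts at rest, with 43, 77 and 48 UMIs of Fancd2, Fanca and Fanci in all low-cycling cells, but their pools did not overlap.

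The 6 base excision genes and both mismatch genes rose too, by smaller steps. Ung, which removes uracil from DNA, went from 20.4, 25.4 and 27.8 CPM to 60.5, 73.6 and 85.0 CPM, a log2 fold change of 1.65 ± 0.07. The break sensor Parp1 (0.58 ± 0.03), its relative Parp2 (0.75 ± 0.03) and Apex1 (0.48 ± 0.03), the endonuclease that cuts at sites without a base, were higher in all 8 pools. Msh6, which recognizes mismatched bases, had a log2 fold change of 1.01 ± 0.06, and Pms2 0.48 ± 0.07.

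Damage signalling was split, with 7 of 11 members higher and 2 lower. Chek1, the kinase downstream of Atr, stood at 4.46, 6.10 and 8.01 CPM in low-cycling and 22.7, 25.0 and 31.1 CPM in dividing cells (2.16 ± 0.09, adjusted p = 1.7e-12). H2afx, the histone variant that is phosphorylated beside breaks, went from 63.4, 78.5 and 92.0 CPM to 219, 236 and 268 CPM (1.78 ± 0.06). The kit primes on poly(A) tails, so H2afx transcripts without a tail were not captured. Chek2 (0.80 ± 0.07) and the ubiquitin ligase Rnf168 (0.82 ± 0.05) rose without overlap, while the kinases Atr (0.21 ± 0.05) and Atm (0.15 ± 0.06) rose by little. Trp53 itself had 208, 256 and 286 CPM in low-cycling and 203, 248 and 259 CPM in dividing cells. These ranges overlapped, and the log2 fold change of 0.05 ± 0.02 did not pass the test (adjusted p = 0.053) and changed sign when sums were scaled by total UMIs alone.

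The members that fell on division were Trp53bp1 and Mdm2 among signalling genes and Xpa and Xpc among those of nucleotide excision repair. Trp53bp1, whose product shields broken ends and favours end joining, had 12.3, 15.9 and 18.4 CPM in low-cycling and 8.14, 9.37 and 10.5 CPM in dividing cells (-0.67 ± 0.07, adjusted p = 8.2e-08). Xpa, which verifies bulky lesions, had 43.2, 47.1 and 49.3 against 25.6, 28 and 29.1 CPM (-0.62 ± 0.04). Xpc, the sensor of bulky lesions, fell by 0.50 ± 0.05 and Mdm2, the ligase that degrades p53, by 0.20 ± 0.05 on the log2 scale. For all 4, every pool of dividing cells lay below every pool of low-cycling cells. Of the end-joining genes, Prkdc (0.63 ± 0.07) and Xrcc6 (0.18 ± 0.04) rose, and Xrcc5 (-0.09 ± 0.06) and Lig4 (-0.09 ± 0.16) did not pass the test.

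**Figure D1:**
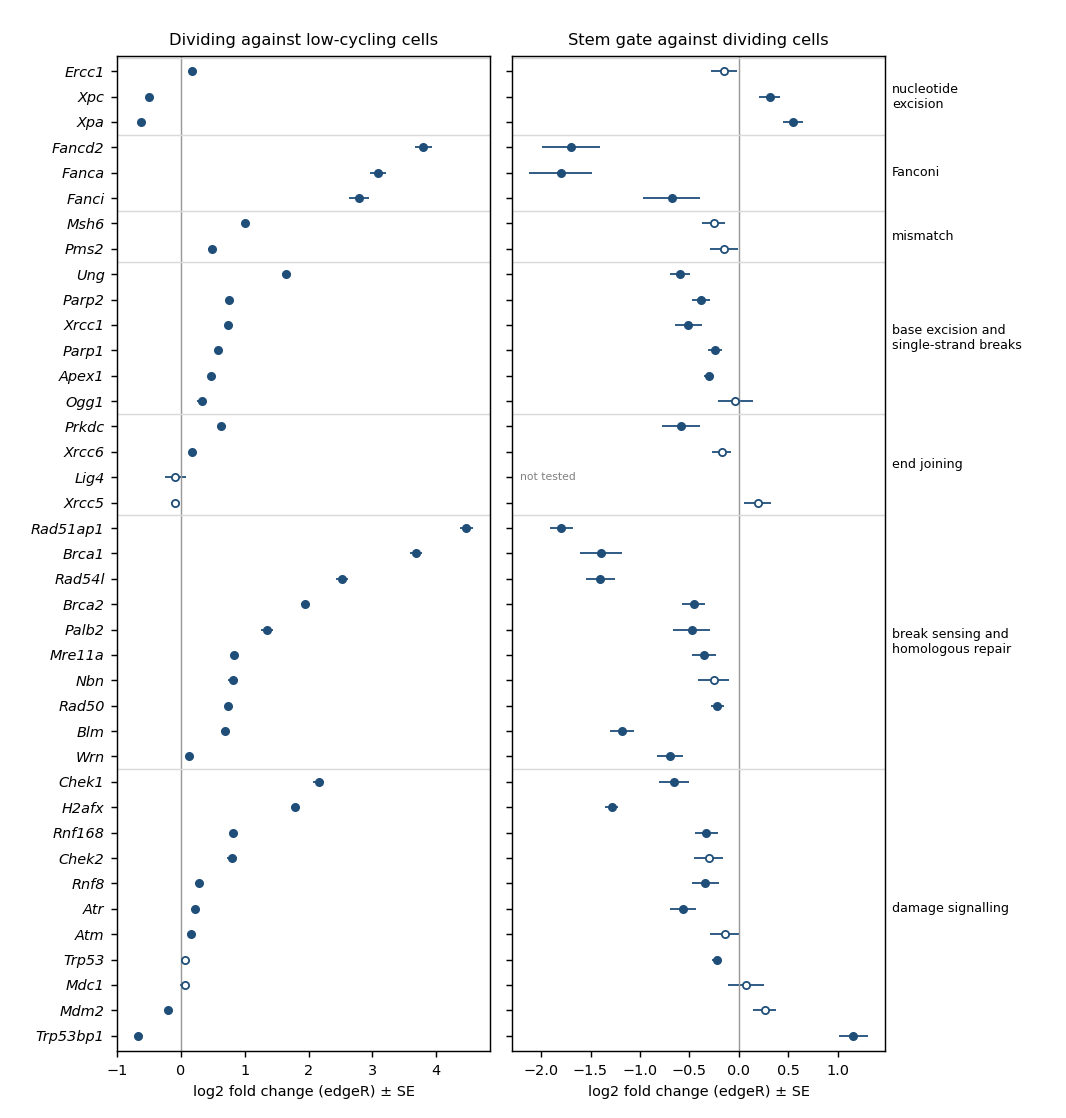
Log2 fold changes ± SE (edgeR) of the 39 members, ordered by role, for dividing against low-cycling cells and the stem gate against dividing cells, each over 8 pools. Filled points have an adjusted p under 0.05 and open points do not. Dividing against low-cycling cells, the points reach 4.47 (Rad51ap1), and in the stem gate against dividing cells most lie below 0.

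Genes of the same pathways that are not among the 39 were counted from lists of textbook members, to be read against the 39.3% of all genes called higher and the 40.8% called lower. Of 21 further homologous repair genes tested, 18 rose and 2 fell in dividing against low-cycling cells, with Eme1 (4.10 ± 0.16 on the log2 scale) and Rad54b (4.01 ± 0.18) the largest rises and Rad52 (-0.25 ± 0.07) and Rad51d (-0.16 ± 0.05) the falls. Of 11 further Fanconi genes, 9 rose and 0 fell, led by Fancb (2.53 ± 0.21) and Ube2t (1.71 ± 0.06). All 14 checkpoint signalling genes tested rose, Cdc25c by 5.81 ± 0.18 and Clspn, the adaptor of Atr and Chek1, by 3.91 ± 0.07. In each of these 3 lists most genes rose. The gates were set by genes of DNA replication and mitosis, so a rise of genes that follow the cell cycle was built into this comparison. The counts of these lists are therefore no separate support for those of the 39 members. Mismatch and base excision genes were 14 up and 2 down of 18, led by Neil3 (4.87 ± 0.10) and Lig1 (2.37 ± 0.08), with Neil1 (-0.64 ± 0.12) and Smug1 (-0.49 ± 0.11) lower. End-joining genes were 5 up, with Polq at 2.76 ± 0.19, and 2 down, with Xrcc4 at -0.59 ± 0.08, of 12. Those of nucleotide excision were 6 up and 4 down, with Uvssa at -0.74 ± 0.08, of 13. Among 22 p53 target genes tested, 6 rose, led by Psrc1 (0.95 ± 0.09) and the death effector Bax (0.51 ± 0.03), and 11 fell, led by Trp53inp1 (-2.36 ± 0.07) and Btg2 (-1.75 ± 0.05), both of which slow proliferation.

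Stem gate cells held less transcript than dividing progenitors for most members. Of 38 tested, 3 were higher and 24 lower, where 29.9% of all 10494 genes were higher and 29.1% lower, and the members' median was -0.33 on the log2 scale against 0.01 over all genes. Scaled by total UMIs alone, which moved the median of all genes by 0.14, 5 members were higher and 16 lower, where 3941 of all genes were higher and 2342 lower. Lig4, with 7 UMIs in the stem gate, did not pass the filter. In 2 members every pool of the stem gate lay above every pool of dividing cells and in 6 below, against 14.5% and 8.9% of all genes.

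The largest decreases in the stem gate were in Fanconi and homologous repair genes. Fanca had 0, 3.22 and 11.7 CPM in the stem gate against 9.64, 10.3 and 10.8 CPM in dividing cells (-1.80 ± 0.32, adjusted p = 1.4e-05), and its ranges overlapped through CVT pool 4, the highest of the stem gate. Rad51ap1 had 13.6, 17.0 and 26.1 CPM, with every pool below the dividing cells (-1.79 ± 0.12, adjusted p = 3.3e-14). Fancd2 (-1.70 ± 0.30), Rad54l (-1.40 ± 0.15) and Brca1 (-1.39 ± 0.21) were lower without overlap as well, and so was Blm (-1.18 ± 0.12), the helicase that dissolves crossed strands. Fanci, the other Fanconi member, was lower by less (-0.68). The whole stem gate held 5896930 UMIs, so the values of Fanca and Fancd2 there rest on few UMIs.

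H2afx had 62.6, 107 and 139 CPM in the stem gate, with all pools below the dividing cells (-1.29 ± 0.07, adjusted p = 2.0e-16). Chek1 had 3.13, 14.7 and 27.3 CPM (-0.65 ± 0.15, adjusted p = 5.1e-04), lower in 7 of 8 pools. Atr had 13.6, 18.4 and 28.2 against 23.5, 24.6 and 26.2 CPM (-0.56 ± 0.13, adjusted p = 5.7e-04), also lower in 7 of 8, and with gates on cells thinned to 2759 UMIs it was not called at a like value (-0.57, adjusted p = 0.080). Trp53 had 193, 224 and 249 CPM (-0.22 ± 0.05, adjusted p = 1.2e-04), and its value was -0.08 and not called under scaling by total UMIs alone. Atm (-0.14 ± 0.15, adjusted p = 0.45), Chek2 (-0.30 ± 0.15, adjusted p = 0.077) and Mdm2 (0.26 ± 0.12, adjusted p = 0.056) did not pass the test, and their value was called under some alternatives, such as Mdm2 at 0.40 under scaling by total UMIs alone and Chek2 at -0.44 without CVT pool 3.

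Trp53bp1, Xpa and Xpc were the members higher in the stem gate. Trp53bp1 had 16.3, 24.2 and 31.3 CPM there, above all pools of dividing cells (1.16 ± 0.15, adjusted p = 5.7e-08), and Xpa had 34.5, 42.8 and 53 CPM (0.55 ± 0.10, adjusted p = 1.9e-05), likewise without overlap. Xpc had 42.0, 59.1 and 90.6 CPM (0.31 ± 0.11, adjusted p = 0.011), and it was no longer called without SPF pool 2 (0.17), with the stricter stem gate (0.18), with no filter on low counts (0.20) or without the 5% of cells with most UMIs (0.14).

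Among p53 targets outside the 39, 7 were higher in the stem gate and 4 lower of 19 tested, where 29.9% and 29.1% of all genes were called. Trp53inp1 (2.02 ± 0.27) and Bbc3, an inducer of cell death (1.39 ± 0.16), led the former and Gadd45a (-0.58 ± 0.12) and Bax (-0.56 ± 0.06) the latter. Of 20 further homologous repair genes tested 0 were higher and 15 lower, led by Eme1 (-1.96 ± 0.21) and Rad54b (-1.88 ± 0.31). Read against the same shares of all genes, the counts higher and lower were 0 and 6 of 10 Fanconi genes, 1 and 7 of 11 end-joining genes, 2 and 4 of 18 mismatch and base excision genes, 1 and 6 of 13 nucleotide excision genes, and 0 and 9 of 14 checkpoint genes.

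The stem gate included dividing cells, so the 514 stem gate cells below the median of both division lists were also taken alone, a choice made after the data were seen. Against dividing cells, 4 members were then higher and 28 lower of 38, where 28.8% and 29.8% of all genes were called. Rad51ap1 had 7 UMIs in all these cells, which hold 3124540 UMIs. Brca1 had 3 UMIs, Fancd2 3, Fanci 2 and Fanca 1. These genes were near the limit of detection there. H2afx had 22.6, 52.0 and 103 CPM (-2.31 ± 0.12), Ung 3.16, 15.1 and 22.6 CPM (-2.30 ± 0.17) and Brca2 0, 13.8 and 29.9 CPM (-1.84 ± 0.22). Trp53bp1 (1.34 ± 0.19), Xpa (0.79 ± 0.13), Mdm2 (0.49 ± 0.15) and Xpc (0.44 ± 0.13) were higher. The division lists used to choose these cells hold no member, but their genes follow the cell cycle as many members do.

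**Figure D2:**
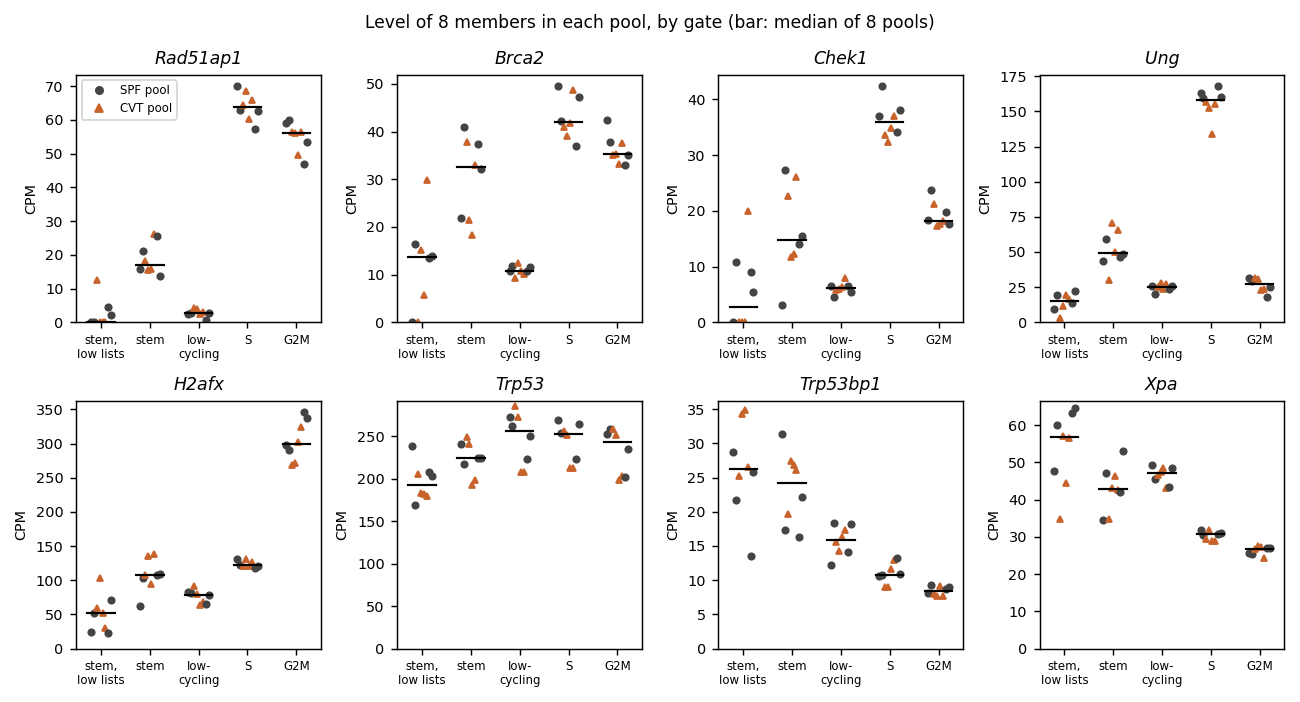
CPM of 8 members in each pool (circles SPF, triangles CVT) by gate, with a bar at the median of the 8 pools. The column "stem, low lists" holds the 514 stem gate cells below the median of both division lists, beside all 767 stem gate cells and the low-cycling, S and G2M gates. Rad51ap1 has a median of 0 CPM in the former, Ung peaks in the S gate and the captured H2afx transcripts in the G2M gate.

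Compared with low-cycling progenitors, the whole stem gate had 12 members higher and 5 lower of 34 tested, where 12% and 11.6% of all 9936 genes were called. Lig4, Brca1, Fancd2, Fanca and Fanci did not pass the filter. Rad51ap1 (2.59 ± 0.24), Chek1 (1.41 ± 0.21), Brca2 (1.37 ± 0.15), Rad54l (1.04 ± 0.21) and Ung (0.95 ± 0.12) were the largest increases. With gates on cells thinned to 2759 UMIs 0 of 33 members were called higher in edgeR, with Chek1 at 0.18, Brca2 at 0.33, Rad54l at 0.32 and Ung at -0.67, and Rad51ap1 did not pass the filter there. Wrn (-0.67 ± 0.15), Blm (-0.56 ± 0.13), Atr (-0.48 ± 0.14), Xpc (-0.28 ± 0.09) and Trp53 (-0.27 ± 0.05) were lower. The call for Xpc was lost without CVT pool 3, 4, 5 or 6 or SPF pool 7 or 8 (-0.23 to -0.28), by DESeq2 (-0.29), without the pool block (-0.28), without the 5% of cells with most UMIs (-0.24), under scaling by total UMIs alone (-0.16) and with thinned gates (-0.11). Those for Atr (-0.38) and Blm (-0.42) were lost with the stricter stem gate, and those for Atr (-0.42) and Wrn (-0.56) with thinned gates, and Atr also under scaling by total UMIs alone (-0.36). In 4 members every pool of the stem gate lay above every pool of low-cycling cells and in 0 below, against 4.78% and 1.99% of all genes. Scaled by total UMIs alone, which moved the median of all genes by 0.12, 17 were higher and 3 lower, where 2088 of all genes were higher and 675 lower.

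With the 514 stem gate cells below both medians in place of the whole gate, 2 members were higher and 5 lower of 33, where 9.97% and 10.8% of all genes were called, and of the 5 increases above Chek1, Brca2, Rad54l and Ung were not called higher and Rad51ap1 did not pass the filter. Trp53bp1 (0.60 ± 0.18, adjusted p = 0.011) and Msh6 (0.56 ± 0.18, adjusted p = 0.019) were higher. Blm (-1.34 ± 0.25), Wrn (-0.82 ± 0.21), Ung (-0.70 ± 0.20), H2afx (-0.55 ± 0.14) and Trp53 (-0.45 ± 0.06) were lower. Trp53 had 169, 193 and 239 CPM in these stem cells, and Blm 2.72, 6.20 and 17.2 against 20.2, 23.3 and 33.1 CPM in low-cycling cells. In low-cycling cells genes of the erythroid list summed to 653 to 1220 CPM against 36.2 to 184 CPM in these stem cells, and their part in these values was not tested.

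Within the dividing cells the G2M gate was compared with the S gate. Of 39 tested, 9 were higher and 17 lower in the G2M gate than in the S gate, where 30.5% and 30.8% of all 11200 genes were called, and the members' median was -0.12 on the log2 scale. Pools did not overlap in 2 members higher and 8 lower in G2M, against 5.33% and 6.84% of all genes. Ung showed the widest difference, with 18.2, 27.0 and 31.7 CPM in the G2M gate and 134, 158 and 168 CPM in the S gate (-2.50 ± 0.05, adjusted p = 1.7e-17). Every pool of the S gate lay above every pool of the G2M gate, CVT pool 5 standing apart as the lowest S value. Chek1 had 17.3, 18.2 and 23.7 against 32.4, 35.9 and 42.4 CPM (-0.89 ± 0.05), and Msh6 (-0.56 ± 0.05), Rad54l (-0.51 ± 0.05) and Atm (-0.46 ± 0.06) were lower without overlap too.

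H2afx was the member with the largest rise in the G2M gate, with 268, 300.1 and 346 CPM against 118, 122 and 131 CPM in the S gate (1.30 ± 0.04, adjusted p = 1.1e-14). These values leave out H2afx transcripts without a poly(A) tail, which were captured in neither gate. Fancd2 (0.61 ± 0.08), Chek2 (0.44 ± 0.07), Wrn (0.44 ± 0.04) and Mdm2 (0.31 ± 0.05) were higher as well, those of Fancd2 and Wrn not being called with gates at the 90th percentile (0.01 and 0.03). Over all gated cells Rad51ap1 (-0.20 ± 0.03), Brca1 (-0.30 ± 0.06), Brca2 (-0.24 ± 0.04) and Palb2 (-0.25 ± 0.05) were lower in the G2M gate in 8 of 8 pools. The values of Rad50 (-0.02 ± 0.03), Mre11a (0.05 ± 0.05), Nbn (0.01 ± 0.06), Parp1 (-0.05 ± 0.03) and Trp53 (-0.04 ± 0.02) did not pass the test over all gated cells.

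The G2M gate was richer in late granulocyte genes, which summed to 7122 to 50777 CPM against 1229 to 9680 CPM in the S gate, so the comparison was repeated within each lineage gate, again after the data were seen. In cells of the erythroid gate, where these genes summed to 419 to 3357 CPM in G2M and 402 to 6456 CPM in S, 4 members were higher and 14 lower of 38, where 17.1% and 19.7% of all genes were called. In the granulocyte-monocyte gate 8 were higher and 21 lower of 38, against 23.9% and 24.4% of all genes. H2afx (0.80 ± 0.04 in erythroid and 1.40 ± 0.04 in granulocyte-monocyte cells) and Chek2 (0.29 ± 0.10 and 0.33 ± 0.09) were higher in G2M in both lineages. Ung (-1.86 ± 0.06 and -3.16 ± 0.06) and Chek1 (-0.57 ± 0.08 and -1.30 ± 0.07) were lower in both. Trp53, not called over all gated cells, was also lower in both (-0.19 ± 0.04 and -0.16 ± 0.03). Parp1 (-0.19 ± 0.04) and Rad50 (-0.10 ± 0.04) were lower in the granulocyte-monocyte gate. In the erythroid gate Parp1 (0.12 ± 0.05) and Rad50 (-0.01 ± 0.05) were not called. Mre11a and Nbn were called in neither lineage. Wrn and Mdm2 were not called in the erythroid gate (0.04 ± 0.06 and 0.03 ± 0.11) and Fancd2 was not called in the granulocyte-monocyte gate (0.22 ± 0.11). Wrn was 0.16 ± 0.06 in the granulocyte-monocyte gate. Rad51ap1 was lower in both lineages (-0.15 ± 0.06 and -0.42 ± 0.05). Brca1, Brca2 and Palb2 were lower in the granulocyte-monocyte gate (-0.57 ± 0.09, -0.49 ± 0.06 and -0.26 ± 0.09). In the erythroid gate they were not called (-0.11 ± 0.12, -0.05 ± 0.07 and -0.09 ± 0.12). Xpc was higher in the granulocyte-monocyte gate (0.24 ± 0.05) and lower in the erythroid gate (-0.46 ± 0.12). Cells at or above both limits were placed in the G2M gate. Per 10000 UMIs, the median S list score of G2M cells was 42.5 in the erythroid and 26.0 in the granulocyte-monocyte gate. The S limit was 43.0. The part of this overlap in the values of each lineage was not tested.

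**Figure D3:**
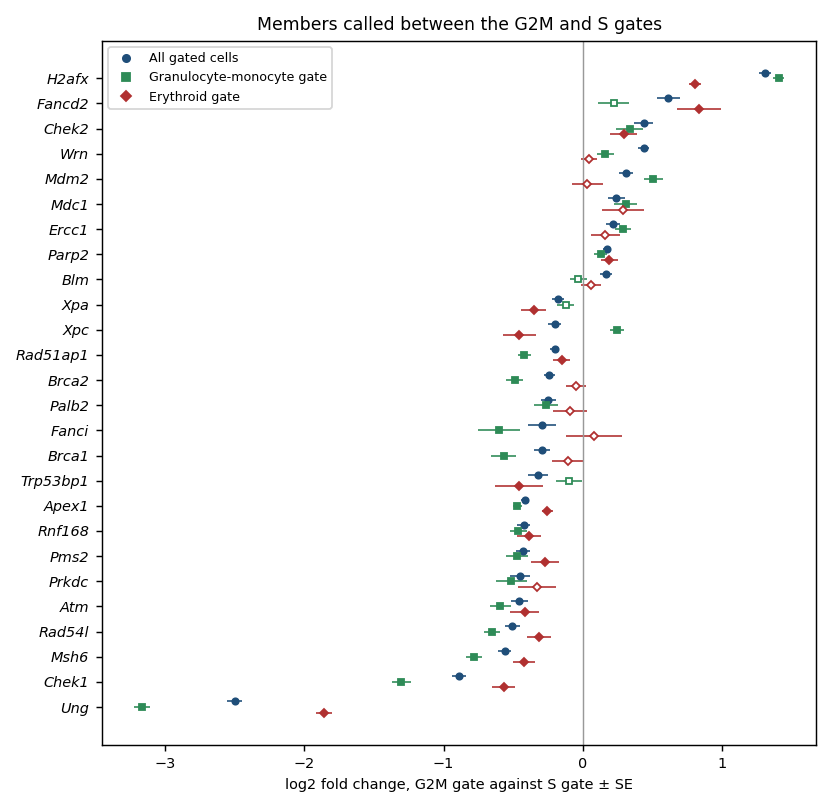
Log2 fold changes ± SE of members between the G2M and S gates, over all gated cells and within the granulocyte-monocyte and the erythroid gate. Filled points have an adjusted p under 0.05. Ung has the lowest value in all 3 sets, at -2.50 over all gated cells. H2afx has the highest over all gated cells (1.30) and in the granulocyte-monocyte gate (1.40), and Fancd2 (0.84) lies above H2afx (0.80) in the erythroid gate.

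The change on division was then measured inside each lineage. Among cells with granulocyte-monocyte transcripts (6288 dividing and 3132 low-cycling), 27 members rose and 6 fell of 38 tested, where 33.3% and 36.4% of all 10031 genes were called, and pools did not overlap in 18 and 4 members against 13.6% and 13.7% of genes. Among cells with erythroid transcripts (2799 and 1353), 21 rose and 5 fell of 37, where 35.7% and 37.8% of all 7929 genes were called, and pools did not overlap in 16 and 4 members against 20.1% and 17.7%. Of 37 members tested in both, 20 rose in both, 4 fell in both (Trp53bp1, Xpa, Xpc and Mdm2) and 0 were called in opposite directions. Mdm2 stood at -0.23 ± 0.06 in the granulocyte-monocyte gate and -0.30 ± 0.12 in the erythroid gate. Its erythroid call was lost without CVT pool 3 (-0.26), CVT pool 4 (-0.24), SPF pool 1 (-0.26) or SPF pool 2 (-0.27), by DESeq2 (-0.27), with gates at the 90th percentile (-0.22), with no filter on low counts (-0.13) and without the 5% of cells with most UMIs (-0.19). Its granulocyte-monocyte call was lost with thinned gates (-0.07) and with no filter on low counts (-0.13). Rad51ap1 changed by 4.16 ± 0.13 in the granulocyte-monocyte gate and 4.21 ± 0.17 in the erythroid gate, Fancd2 by 4.11 ± 0.25 and 3.86 ± 0.35, and Brca1 by 3.30 ± 0.16 and 3.07 ± 0.23. Rad54l (2.14 ± 0.10 and 2.63 ± 0.16), Trp53bp1 (-0.65 ± 0.08 and -0.97 ± 0.16) and Xpa (-0.60 ± 0.06 and -0.67 ± 0.09) followed, and none of these 6 passed the test of a difference between lineages. Late granulocyte genes still differed inside the granulocyte-monocyte gate, at 21685 to 85056 CPM in low-cycling and 9723 to 43559 CPM in dividing cells, and inside the erythroid gate they stood at 399 to 4535 CPM and 415 to 2917 CPM.

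An interaction test, added after the data were seen, found 12 of 38 members whose change on division differed between lineages, 6 in each direction, where 20.7% of 10505 genes had the larger value in the granulocyte-monocyte gate and 19.1% in the erythroid gate. With all pools in, members were thus called no more often than genes at large in either direction. Leaving out a pool moved the counts over all genes, to 2412 and 1455 without CVT pool 4 and to 1777 and 2349 without SPF pool 1. Xpc had 68.1, 74.7 and 84.4 CPM in low-cycling and 60.8, 65.8 and 71.6 CPM in dividing granulocyte-monocyte cells, but 34.8, 40.1 and 46.2 against 9.81, 13.7 and 15.4 CPM in erythroid cells. It fell by 0.13 ± 0.05 in the former and by 1.59 ± 0.11 in the latter (difference 1.36 ± 0.11, adjusted p = 1.8e-13). H2afx rose from 55.1, 69.9 and 74.1 CPM to 228, 242 and 275 CPM in granulocyte-monocyte cells and from 109.7, 122 and 133 CPM to 183, 195 and 219.6 CPM in erythroid cells (difference 1.20 ± 0.08, adjusted p = 6.6e-16). The steeper change of H2afx was thus in the granulocyte-monocyte gate and that of Xpc in the erythroid gate. Blm rose in granulocyte-monocyte cells from 8.61, 13.4 and 17.0 CPM to 22.6, 24.7 and 26.9 CPM, and erythroid cells held 36.9, 45.3 and 56.2 CPM in low-cycling and 42.8, 45.5 and 49.5 CPM in dividing cells (difference 0.83 ± 0.12, adjusted p = 4.0e-07).

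Trp53 and the end-joining gene Xrcc5 also differed by lineage. Trp53 had 343, 404 and 429 CPM in low-cycling and 255, 306 and 320.4 CPM in dividing erythroid cells, a fall of 0.44 ± 0.04 on the log2 scale without overlap, while the value in granulocyte-monocyte cells was 0.04 ± 0.03 (difference 0.39 ± 0.05, adjusted p = 1.5e-07). Xrcc5, a subunit of the Ku ring that grips broken ends, fell in granulocyte-monocyte cells from 9.58, 13.3 and 22.5 CPM to 3.49, 5.53 and 7.99 CPM (-1.24 ± 0.13) and stood at 23.7, 27.3 and 34.6 against 26.5, 29.2 and 37.6 CPM in erythroid cells (difference -1.46 ± 0.17, adjusted p = 2.9e-09). Its partner Xrcc6 did not pass that test (difference -0.24 ± 0.11, adjusted p = 0.082). Fanca had the largest gap, -2.08 ± 0.53 (adjusted p = 0.0017), which rests on 6 UMIs in low-cycling erythroid cells. Msh6 (-0.62 ± 0.16), Nbn (-0.48 ± 0.18), Wrn (-0.40 ± 0.09) and Parp2 (-0.24 ± 0.10) had the larger value in erythroid cells, and Atr (0.38 ± 0.12) and Apex1 (0.38 ± 0.06) in granulocyte-monocyte cells. The call for Nbn was lost without CVT pool 4, CVT pool 6 or SPF pool 8, at -0.33, -0.45 and -0.35.

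**Figure D4:**
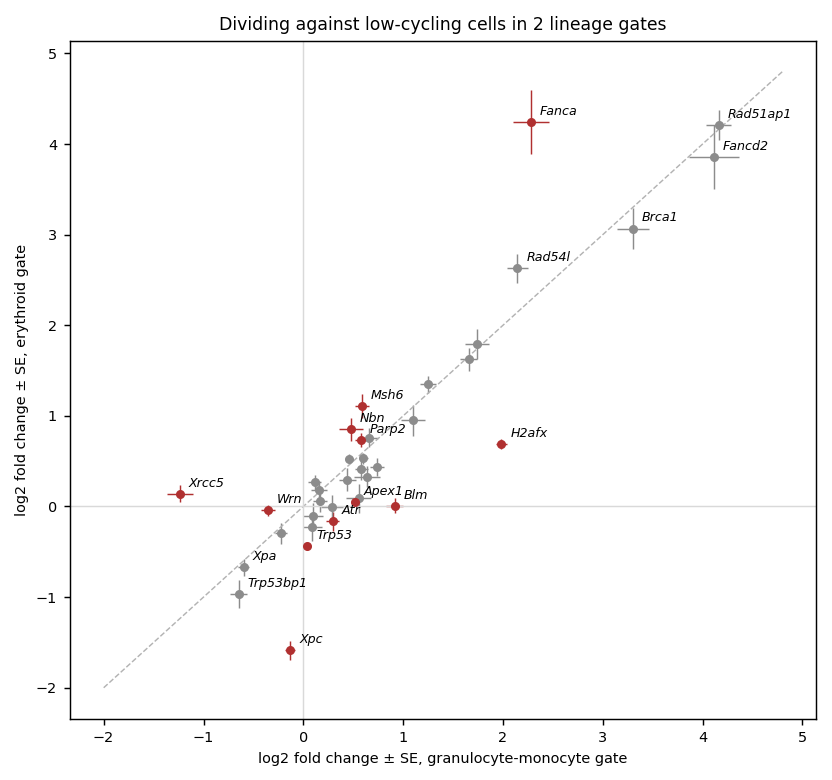
Log2 fold change ± SE of dividing against low-cycling cells in the granulocyte-monocyte gate and the erythroid gate for the 37 members tested in both, with a dashed line of equal change. Red points passed the interaction test (adjusted p under 0.05). Xpc, H2afx, Blm and Trp53 have the larger value in the granulocyte-monocyte gate, and Xrcc5 and Fanca in the erythroid gate.

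Housing gave no call among the members. In all KL cells 0 of 39 passed an adjusted p of 0.05, where 0% of all 13092 genes did, in dividing cells 0 of 39 (0% of 12231 genes), and in the stem gate 0 of 29 (0.0151% of 6625 genes). At an unadjusted p under 0.05 in edgeR the numbers of members were 0, 2 and 1. By DESeq2 also 0 were called, among 3 members to which it gave an adjusted p in all KL cells, 39 in dividing cells and 29 in the stem gate. With 4 pools a side the SEs ran from 0.05 to 0.19 in dividing cells and from 0.11 to 0.34 in the stem gate. On counts simulated over all tested genes, edgeR recovered 29% of 1.5-fold and 79.5% of 2-fold changes in the stem gate (6625 genes) and 57% and 87% in dividing cells (12231 genes). Each simulation changed 200 genes, whereas the data gave 1 call in the stem gate and 0 in dividing cells. Where few genes change, the adjustment asks for a smaller p. Members were not simulated apart, so these shares do not give the recovery of a member.

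In the stem gate, 17 members had a positive and 12 a negative log2 fold change of CVT against SPF, with a median of 0.01. Wrn, mutated in the human progeroid Werner syndrome, had the smallest p, with 12.5, 19.9, 16.3 and 28.4 CPM in SPF pools 1, 2, 7 and 8 and 31.8, 31.3, 37.8 and 42.6 CPM in CVT pools 3, 4, 5 and 6. The groups did not overlap, at 19.3 ± 6.76 and 35.9 ± 5.39 CPM (mean ± SD), and the log2 fold change of 0.73 ± 0.24 did not pass the test (adjusted p = 0.67 in edgeR). Atr had 28.2, 23.6, 23.3 and 19.7 CPM in SPF pools and 13.6, 13.7, 17.1 and 13.7 CPM in CVT pools, again without overlap (-0.55 ± 0.27, adjusted p = 0.96 in edgeR). H2afx had 62.6, 103, 107 and 108 CPM in SPF and 107, 135, 95 and 139 CPM in CVT pools, which overlap (0.29 ± 0.16, adjusted p = 0.96 in edgeR). Apex1 was the other member without overlap, at 160.1 to 191 CPM in SPF and 130.4 to 159 CPM in CVT pools, so 3 of 29 members did not overlap against 3.25% of all genes. These are sums of few UMIs, between 4 and 46 per pool for Wrn and 7 and 32 for Atr. Late granulocyte genes summed to 880.0 to 6102 CPM in the stem gate of SPF pools and 2451 to 6909 CPM in that of CVT pools, and their part in these values was not tested.

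Pools 1 to 4 and pools 5 to 8, each with 2 SPF and 2 CVT pools, were taken as separate sets. The labels name no such sets and no batch. The 2 sets differed in some genes. Haemoglobin genes summed to 134 to 174 CPM in all KL cells of pools 1 to 4 and 1546 to 4502 CPM in those of pools 5 to 8, and Trp53 in dividing cells stood at 252 to 259 and 203 to 245 CPM. Members are named here for the smallest p over these same pools, so a like sign in both sets is no separate support. Within these sets the log2 ratio of mean CPM, CVT to SPF, in the stem gate was 0.96 and 0.85 for Wrn, -0.92 and -0.48 for Atr and 0.55 and 0.12 for H2afx. In dividing cells, Palb2 had 16.2, 13.7, 15.1 and 12.6 CPM in SPF pools and 12.5, 11.8, 11 and 12.5 CPM in CVT pools (-0.21 ± 0.09, adjusted p = 0.93 in edgeR), with -0.30 and -0.23 within the sets. Chek2 (-0.17 ± 0.08, with -0.26 and -0.15 within the sets) and Ung (-0.19 ± 0.09, with -0.17 and -0.30) came next. Palb2 and Mdc1 were the 2 members whose pools did not overlap there, against 4.39% of all genes. In all KL cells the smallest p belonged to Mdc1 (-0.13 ± 0.07, with -0.32 and -0.05 within the sets), Fancd2 (0.20 ± 0.11, with 0.13 and 0.18) and Fanca (0.15 ± 0.09, with 0.06 and 0.14). Pms2 was the 1 member whose pools did not overlap in all KL cells, against 6.16% of all genes. The test of whether housing acted differently in the stem gate and in dividing cells called 0 of 38 members (0% of 10494 genes), with Wrn (0.71 ± 0.25), Ogg1 (0.79 ± 0.34) and Pms2 (0.60 ± 0.27) the smallest p, and 4 members had an unadjusted p under 0.05.

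**Figure D5:**
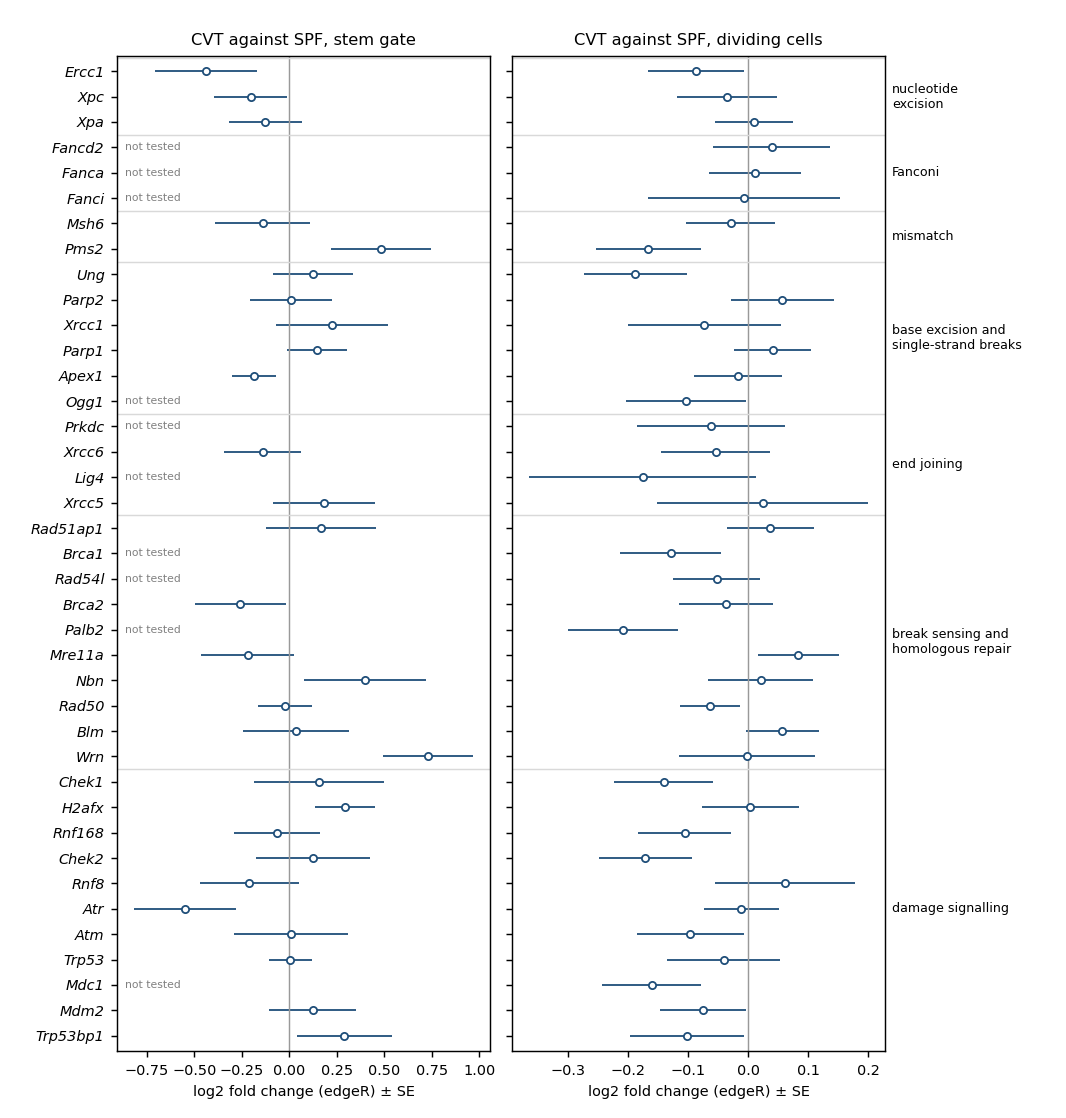
Log2 fold changes ± SE (edgeR) of CVT against SPF for the members, ordered by role, in the stem gate (29 tested) and in dividing cells (39 tested), with 4 pools a group. All points are open because none passed an adjusted p of 0.05, and the 2 panels have different horizontal scales. Wrn reaches 0.73 in the stem gate.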

How the data were processed

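KL cells of 8 pools (4 SPF, 4 CVT) were read with the 10x Chromium 3′ kit. The deposited values are UMI counts per gene and cell that the authors made with Cell Ranger (its version is not given in the sources used here), and the processing notes name the build mm9. The deposited table held 27998 genes and 29891 cells with 502 to 5497 genes each, and no further filter on cells was applied. Doublets were not called here, and leaving out the 5% of cells with most UMIs was 1 alternative. The 39 genes, the gene lists and the tests were chosen with earlier results of these data known.

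UMIs were summed per pool and gate. Division lists were scored per 10000 UMIs of a cell, and a lineage gate took cells outside the stem gate with at least 3 genes of its list, a sum of at least 5 per 10000 UMIs and no second lineage. Sums were tested with edgeR 4.0.16 in R 4.3.3 (TMM scaling, filterByExpr, quasi-likelihood, adjusted p under 0.05 over all genes tested). Pool was a block between gates, since both gates of a comparison come from the same mice. CVT and SPF were compared over 4 against 4 pools, with no block. Levels are CPM of the UMIs of a gate in a pool, without TMM scaling. By the labels a pool holds 2 or 3 mice, so the spread between pools is that of pooled animals. The test was checked on simulated counts with 1.5-fold and 2-fold changes. In the stem gate against dividing cells it recovered 62% and 76% of these changes. Calls on unchanged genes were 10 of 134 and 13 of 165 there. For housing they were 2 of 60 and 12 of 171 in the stem gate, and 4 of 118 and 8 of 182 in dividing cells. Pools of a group differed by more than counting noise, with a ratio of chi-square to degrees of freedom of 9.87 or more, and none was counted as a copy.

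For each comparison the 5 members with the largest fold in each direction among those called are named, with Atm, Atr, Chek1, Chek2, Trp53, Mdm2 and H2afx in the stem gate against dividing cells whatever their values, the 3 members with the smallest p for housing, and up to 2 genes per direction of other lists. Further members are named by their role and were chosen after their values were seen. Alternatives were DESeq2 1.42.0, RLE size factors, keeping genes of low counts, scaling by total UMIs alone, gates at the 90th percentile or on cells thinned to 2759 UMIs, a stricter stem gate, only cells of 1000 genes or more and 10% mitochondrial UMIs or less, no block, a pool set block for housing and leaving out each pool. Of these, the lineage interaction was run only with RLE size factors and with each pool left out. Promoter windows of 250 bases were matched by symbol to RefSeq GRCm38.p6 and share no coordinates with the counts.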

Additional observations from a re-analysis of the deposited data

Results flagged for a closer look

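In 130 groups of pools the highest or lowest pool was compared with the others by Dixon's ratio, and 10 pools stood apart. Chance gives about 1 in 20 such groups. In dividing cells these were Xpa in CVT pool 6 at 25.62 CPM and Chek1 in SPF pool 2 at 31.14 CPM. In the stem gate they were Fanca in CVT pool 4 at 11.73 CPM and Rad54l in SPF pool 1 at 3.132 CPM. The stem gate held 511658 UMIs in pool 4 and 319307 in pool 1, so both values rest on few UMIs. Within the CVT pools of the stem gate Atr stood apart in pool 5 at 17.06 CPM, and within the SPF pools H2afx in pool 1 at 62.64 CPM. In low-cycling cells SPF pool 1 stood apart with Mdm2 at 31.34 CPM and Blm at 33.09 CPM. In the S gate Ung stood apart in CVT pool 5 at 134.3 CPM, and among low-cycling erythroid cells Fancd2 in CVT pool 4 at 3.462 CPM. The latter cells held 866523 UMIs in that pool, so this value of Fancd2 rests on few UMIs too.

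The change from low-cycling to dividing cells differed between the granulocyte-monocyte and the erythroid gate for 12 of 38 members by an interaction test, 6 in each direction, where 20.7% and 19.1% of all genes were called. With all pools in, the share of members was in neither direction above that of all genes. The log2 change of the granulocyte-monocyte gate minus that of the erythroid gate was 1.364 for Xpc, 1.204 for H2afx, 0.8265 for Blm, 0.3876 for Trp53, 0.3836 for Apex1 and 0.3807 for Atr. It was -2.078 for Fanca, -1.459 for Xrcc5, -0.6205 for Msh6, -0.4806 for Nbn, -0.4013 for Wrn and -0.2376 for Parp2.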

How the results depend on the processing

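The comparison of the stem gate with low-cycling cells changed most with the processing. Its 12 higher and 5 lower members became 0 and 2 with gates on thinned cells, 7 and 3 with the stricter stem gate and 2 higher in stem gate cells below both medians, and 3 were lower under scaling by total UMIs alone. Ung turned to -0.67 with thinned gates, and in stem gate cells below both medians Chek1 turned to -0.25, Rad54l to -0.49 and Ung to -0.70. In the stem gate against dividing cells 5 members were higher under scaling by total UMIs alone, and Atm turned to 0.00104. In the G2M gate against the S gate 4 members were higher within the erythroid gate. H2afx in CVT against SPF stem cells turned to -0.37 with thinned gates. The cause was not tested in any of these. The stem gate below both medians, the lineage interaction, the within-lineage G2M and S values and the scaling by total UMIs were added after seeing the data.

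Leaving out each pool in turn gave 2 to 4 members higher and 21 to 24 lower in the stem gate against dividing cells, 28 to 32 and 4 to 5 in dividing against low-cycling cells, 9 to 12 and 4 to 5 in the stem gate against low-cycling cells, and 9 and 17 to 19 in G2M against S. It gave 25 to 27 and 5 to 6 within the granulocyte-monocyte gate, 20 to 22 and 4 to 5 within the erythroid gate, 5 to 6 and 4 to 8 for the lineage difference, and 0 for housing. With no replicate block the counts were 4 and 24, 29 and 4, 12 and 4, and 9 and 16 in the first 4 comparisons, and 26 and 6 and 21 and 5 within the lineages. CVT and SPF pools share no replicate numbers, and with the set of pools as a block in place of pairs edgeR called 0 members for housing. Few UMIs limit the stem gate, with 46 to 212 cells per pool.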
